A study of Mus musculus with 6 samples.

Results

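The 10 genes described here belong to the BCL2 family, the proteins that decide at the outer membrane of mitochondria whether a cell survives or dies by apoptosis. They were taken by name: the survival genes Bcl2, Bcl2l1, Mcl1 and Bcl2a1b, the membrane-permeabilizing effector Bak1, and the BH3-only genes Bcl2l11, Bid, Bad, Bik and Bmf. All 10 are among the 53458 genes quantified, and 9 of them were among the 20654 with enough reads to test, Bik being the exception. RNA was sequenced from leukemic blasts that mice had developed after transplantation, 6 libraries in all. Of these, 3 carried Asxl1 G643W on both alleles (G643W) and 3 had wild-type Asxl1 (WT). Both groups shared the Cebpa -/p30 genotype, in which 1 Cebpa allele is lost and the other makes only the short p30 form of this myeloid transcription factor, and both were of strain C57/BL6; the labels give no ages. Asxl1 encodes a chromatin regulator that works with the deubiquitinase Bap1. The blasts came from bone marrow and were gated on CD45.2, on little Mac1 and Gr1, and on the absence of the erythroid, B and T cell antigens Ter119, B220 and CD3. Whether libraries of a genotype stem from separate primary leukemias is not in the labels, so every p-value here reflects library-to-library spread that may be technical in part. The Cre or vector behind each allele is not in the labels either.

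Survival proteins of the family hold the effectors BAK and BAX in check. BH3-only proteins sense stress or loss of growth factors and either block the survival proteins or activate the effectors, which then open the outer membrane and release cytochrome c. Myeloid cells and their leukemias are known to depend on MCL1 and, in many human acute myeloid leukemias, on BCL2, the target of the drug venetoclax.

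Library totals ran from 61167075 to 101189225 estimated reads. Asxl1 itself had 13.7, 20.2 and 15.5 TPM (a transcript's share of the library, corrected for its length) in G643W libraries 1 to 3 and 6.95, 3.68 and 7.15 TPM in WT libraries 1 to 3, higher in every G643W library (log2 fold change 0.95 ± 0.27, SE, edgeR adjusted p = 0.454). Cebpa had 59.0, 5.93 and 11.5 TPM in G643W and 44.7, 64.5 and 26.9 TPM in WT, with overlap. Neither total reads the alleles, so neither checks the labels. The libraries differed widely in neutrophil transcripts in spite of the gate. The 13 neutrophil marker genes together held 16219.8 to 185382.1 TPM in G643W and 2724.4 to 79010.1 TPM in WT libraries. Their mean log2 level relative to all libraries was -2.03, 2.77 and 2.00 in G643W libraries 1 to 3 and -2.84, -1.22 and 1.32 in WT libraries 1 to 3. In bulk RNA, fewer cells of a type and less RNA per cell cannot be told apart.

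No member of the family changed past the threshold between the genotypes. Bcl2 was lower and Bcl2l1 higher in all 3 G643W libraries than in any WT library, while Mcl1, Bcl2a1b, Bak1 and the tested BH3-only genes overlapped between the groups. With edgeR's quasi-likelihood test, 0 of the 9 tested members had a Benjamini-Hochberg adjusted p under 0.05, where 0.121% of all tested genes did (0.0533% higher and 0.0678% lower). DESeq2 also called 0 of the 9, against 2.07% of all genes. At an unadjusted edgeR p under 0.05 there were 2 of the 9, against 9.66% of all genes: Bcl2 lower (5.78% of all genes) and Bcl2l1 higher (3.89%). The groups did not overlap in CPM (scaled read share) in the same 2 of the 9, against 15.9% of all genes, of which 8.89% were lower and 7.05% higher. Counts of 2 in 9 are too small to set the family apart from that background. The median log2 fold change (G643W over WT) was -0.21 over the 9 members and -0.01 over all tested genes.

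**Figure D1:**
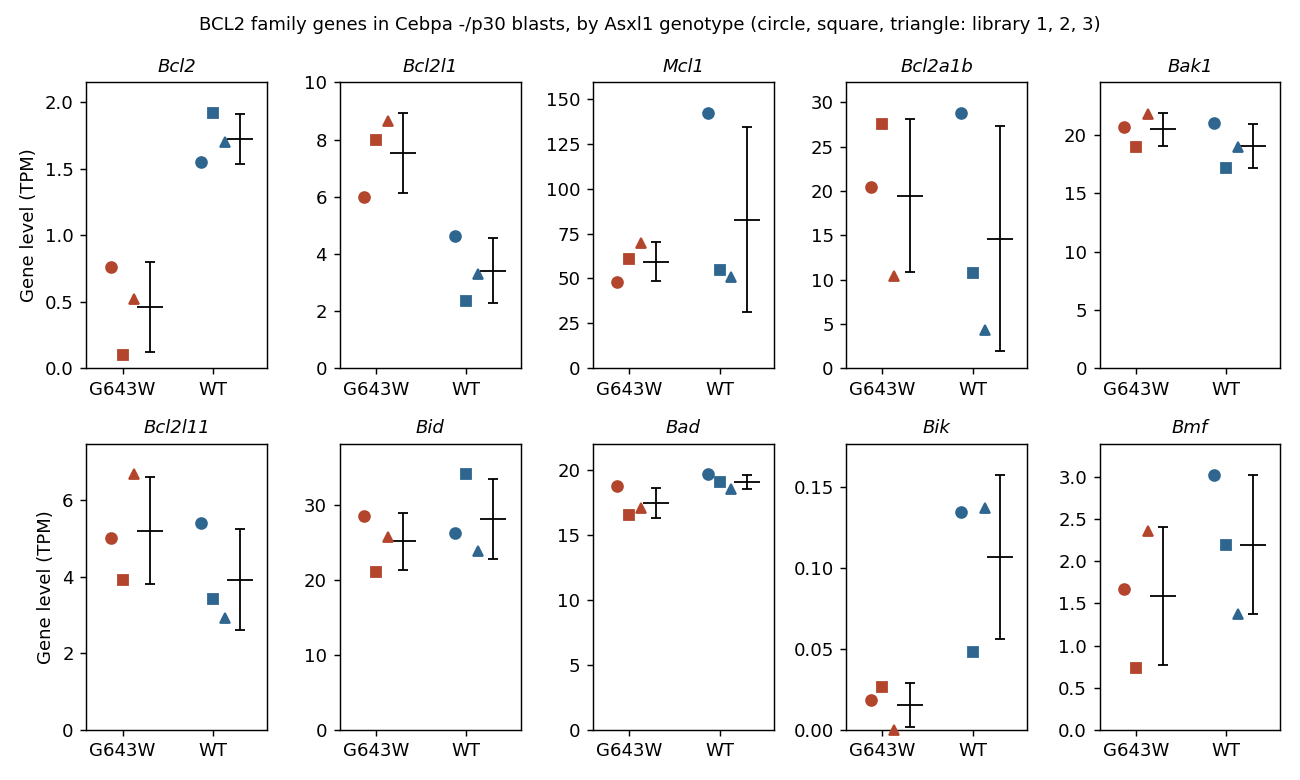
Gene level in TPM (linear axes from 0) of the 10 BCL2 family genes in each library, G643W left and WT right; the bar gives mean ± SD of 3 libraries. Bcl2 lies at 0.098 to 0.763 TPM in G643W and 1.55 to 1.92 TPM in WT, Bcl2l1 at 5.98 to 8.65 and 2.34 to 4.62 TPM, and WT library 1 stands apart for Mcl1 at 142 TPM.

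Bcl2, the founding survival gene of the family (ENSMUSG00000057329; GRCm38 chromosome 1, 106538178 to 106714274, minus strand), was at 0.763, 0.098 and 0.519 TPM in G643W libraries 1 to 3 and at 1.55, 1.92 and 1.70 TPM in WT libraries 1 to 3. These levels rested on 624, 114 and 461 estimated reads in G643W and 1447, 1948 and 1709 in WT. The groups did not overlap, and G643W library 2 was the lowest by far. The mean was 0.46 ± 0.336 TPM in G643W and 1.72 ± 0.187 TPM in WT (SD, n = 3 each). The log2 fold change was -2.06 ± 0.65 (SE, edgeR adjusted p = 0.487, unadjusted p = 0.0159), a 4.17-fold lower level that did not pass the threshold. Leaving out 1 library at a time gave -2.55 (without G643W library 1) to -1.59 (without G643W library 2).

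Both annotated Bcl2 transcripts showed the same order. Bcl2-201, with 708 coding bases, encodes the membrane-anchored alpha form and held 80.0 to 87.3% of the gene's TPM in G643W and 81.5 to 92.7% in WT libraries. It was at 0.666, 0.0784 and 0.435 TPM in G643W and 1.26, 1.66 and 1.58 TPM in WT. Bcl2-202, a single-exon transcript with 597 coding bases, was at 0.0966, 0.0196 and 0.0841 TPM in G643W and 0.286, 0.259 and 0.124 TPM in WT. The gene overlaps D630008O14Rik on the other strand, to which at most 8 reads of any library were assigned.

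Bcl2l1, which encodes BCL-XL, lay the other way (ENSMUSG00000007659; chromosome 2, 152780668 to 152831728, minus strand). It had 5.98, 7.98 and 8.65 TPM in G643W libraries 1 to 3 and 4.62, 2.34 and 3.28 TPM in WT libraries 1 to 3. All 3 G643W libraries were above the highest WT library, WT library 1. The means were 7.54 ± 1.39 TPM in G643W and 3.41 ± 1.15 TPM in WT (SD, n = 3 each). The log2 fold change was 1.02 ± 0.27 (SE, edgeR adjusted p = 0.452, unadjusted p = 0.00686), 2.03-fold, and it ranged from 0.89 to 1.21 with 1 library left out. Bcl2l1 lies 0.51 Mb from Asxl1, the gene that carries the allele compared here.

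Bcl2l1 has 9 annotated transcripts, of which Bcl2l1-201 and Bcl2l1-202 share the coding sequence of BCL-XL (699 bases) and differ in their first exon. Together they were at 3.94, 3.77 and 4.38 TPM in G643W and 2.32, 1.45 and 2.34 TPM in WT, again without overlap. Bcl2l1-201 held 45.4 ± 2.75% of the gene's TPM in G643W and 42.7 ± 10.7% in WT (two-sided exact permutation p = 0.8; 3 against 3 cannot go below 0.1). Part of the gene total came from short or rarely sampled transcripts. Bcl2l1-204 had 1.13, 1.57 and 0 TPM in G643W and was listed at 0 in WT. Bcl2l1-209, annotated without a coding sequence, had 0, 1.41 and 2.69 TPM in G643W and 0.725, 0 and 0 TPM in WT.

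Set side by side per length, the Bcl2l1 gene total exceeded that of Bcl2 in every library. The ratio of Bcl2l1 to Bcl2 gene TPM was 7.84, 81.5 and 16.7 in G643W libraries 1 to 3 and 2.98, 1.22 and 1.93 in WT libraries 1 to 3. This ratio joins the 2 genes picked out above for not overlapping, so it describes them and adds no test. The 2 transcripts with the BCL-XL coding sequence, at 1.45 TPM, lay below Bcl2, at 1.92 TPM, in WT library 2. The value of 81.5 rests on the 114 Bcl2 reads of G643W library 2.

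**Figure D2:**
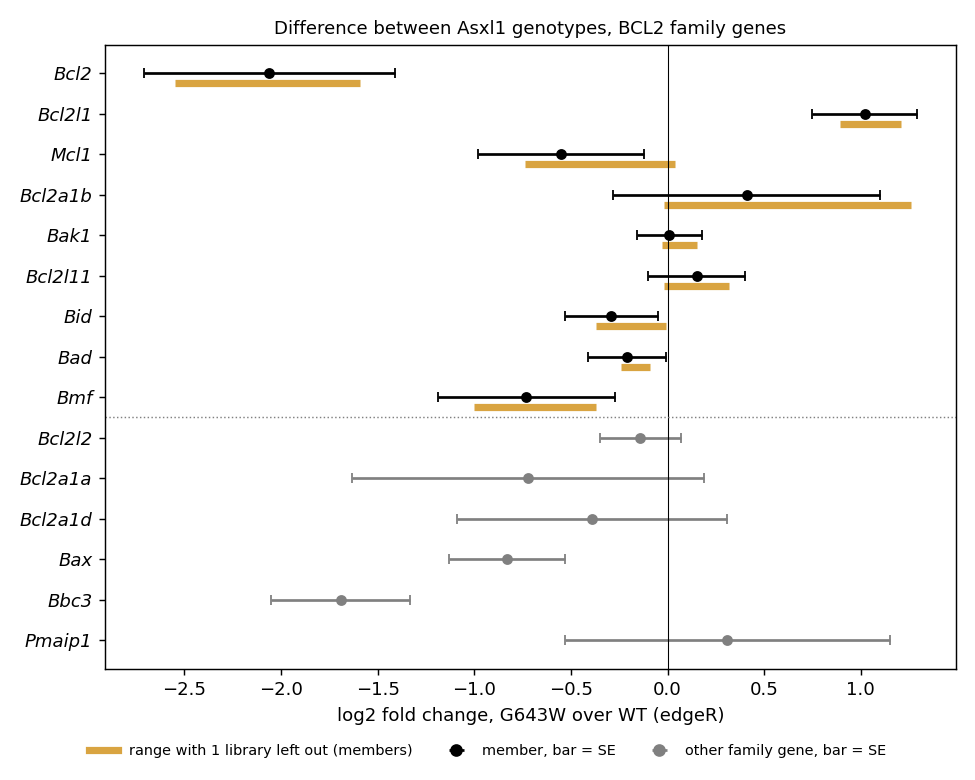
log2 fold change (G643W over WT, edgeR) with its SE for the 9 tested members (black) and 6 other tested BCL2 family genes (grey); the orange bar under a point is the range when 1 library is left out. Bcl2 stays between -2.55 and -1.59 and Bcl2l1 between 0.89 and 1.21, while the bars of Mcl1, Bcl2a1b, Bak1 and Bcl2l11 cross 0.

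Mcl1, the short-lived survival protein on which myeloid cells rely, was the most abundant of the 4 survival members in every library (ENSMUSG00000038612; chromosome 3, 95658788 to 95663176, plus strand). It had 47.9, 61.0 and 69.5 TPM in G643W libraries and 142, 54.7 and 51.1 TPM in WT libraries 1 to 3. WT library 1 held more than any other library, and the remaining 5 lay close together. The log2 fold change was -0.55 ± 0.43 (SE, edgeR adjusted p = 0.637). Without WT library 1 it was 0.04, so the sign of this difference rests on 1 library. All Mcl1 reads were assigned to Mcl1-201 (993 coding bases), and Mcl1-202 was listed at 0 throughout.

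Bcl2a1b encodes A1, a survival protein induced by inflammatory signals, and is 1 of several near-identical gene copies on chromosome 9. Over 516 coding bases Bcl2a1b differs from Bcl2a1a at 11 and from Bcl2a1d at 6, and only 12 positions differ among the 3 copies. The longest coding stretch without any difference is 217 bases, so a read from such a stretch fits every copy and its assignment is an estimate. The first 60 coding bases are shown because they hold 6 of the 12 differences, in capitals (GENCODE M21 transcripts, GRCm38, 5′ to 3′, Bcl2a1a chr9:88957051-88957110 plus strand, Bcl2a1b chr9:89199360-89199419 plus strand, Bcl2a1d chr9:88731660-88731719 minus strand).
Bcl2a1a: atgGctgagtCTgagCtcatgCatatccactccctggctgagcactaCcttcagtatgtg
Bcl2a1b: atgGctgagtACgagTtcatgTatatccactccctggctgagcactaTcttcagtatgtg
Bcl2a1d: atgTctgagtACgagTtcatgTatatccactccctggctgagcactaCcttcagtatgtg
A later stretch of 60 bases in the same exon is shown because it holds only 2 differences (Bcl2a1a chr9:88957341-88957400, Bcl2a1b chr9:89199650-89199709, Bcl2a1d chr9:88731370-88731429).
Bcl2a1a: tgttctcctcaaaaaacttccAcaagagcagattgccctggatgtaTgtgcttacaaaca
Bcl2a1b: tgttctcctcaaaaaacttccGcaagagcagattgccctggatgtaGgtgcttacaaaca
Bcl2a1d: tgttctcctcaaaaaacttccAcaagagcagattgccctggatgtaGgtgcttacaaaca

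Bcl2a1b (ENSMUSG00000089929; plus strand of chromosome 9, 89199209 to 89207827) was at 20.5, 27.5 and 10.4 TPM in G643W and 28.8, 10.7 and 4.31 TPM in WT libraries. The groups overlapped, with the highest and the lowest value both in WT. The log2 fold change was 0.41 ± 0.69 (SE, edgeR adjusted p = 0.827). The copies Bcl2a1a and Bcl2a1d had log2 differences of -0.72 ± 0.91 and -0.39 ± 0.70, in the other direction from Bcl2a1b. Summed, the 3 copies were at 34.0, 41.4 and 19.8 TPM in G643W and 58.4, 32.5 and 6.71 TPM in WT, a log2 difference of -0.07 (edgeR adjusted p = 0.971). Bcl2a1b took 60.5, 66.4 and 52.3% of that sum in G643W and 49.2, 33.1 and 64.2% in WT. The sign of the Bcl2a1b difference therefore depended on whether the copies were kept apart. Gm29094, whose exons lie over Bcl2a1b for 401 of 664 bases on the same strand, had 6.42, 8.66 and 7.33 TPM in G643W and 9.65, 8.10 and 3.70 TPM in WT, and with its reads added the log2 difference was -0.06.

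Over Mcl1, the 3 Bcl2a1 copies named above, Bcl2l1, Bcl2l2 and Bcl2, the summed level was 92.2, 114 and 102 TPM in G643W libraries and 210.4, 94.9 and 67.3 TPM in WT libraries, with overlap. Mcl1 made up 52.0 to 68.4% of it in G643W and 57.6 to 75.9% in WT. Bcl2l1 made up 6.49 to 8.52% in G643W and 2.19 to 4.87% in WT, and Bcl2 0.0858 to 0.828% in G643W and 0.736 to 2.53% in WT. By share of this sum the Bcl2 values overlapped, with WT library 1 at 0.736%, below G643W library 1 at 0.828%.

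Bak1, whose product forms pores in the outer membrane, had the difference nearest 0 of the members (ENSMUSG00000057789; chromosome 17, 27019810 to 27029009, minus strand). It had 20.7, 19.0 and 21.8 TPM in G643W and 21.0, 17.2 and 19.0 TPM in WT libraries. The log2 fold change was 0.01 ± 0.17 (SE, edgeR adjusted p = 0.986). Most of this level was not assigned to the transcript that encodes the full protein. Bak1-201, annotated as subject to nonsense-mediated decay, had 13.9, 12.9 and 15.5 TPM in G643W and 15.6, 12.8 and 12.1 TPM in WT. That was 68.7 ± 2.17% of the gene in G643W and 70.7 ± 6.03% in WT (n = 3 each, ± SD; exact permutation p = 0.8, two-sided). Bak1-202, with 627 coding bases, had 5.60, 5.79 and 6.27 TPM in G643W and 5.33, 4.04 and 6.75 TPM in WT.

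Bak1-201 holds an additional exon of 20 bases (chr17:27021663-27021682, minus strand), which shifts the reading frame. It is shown in capitals between 30 bases on either side, above the same junction of Bak1-202, since it is the sequence that sets the 2 transcripts apart inside the coding region.
Bak1-201: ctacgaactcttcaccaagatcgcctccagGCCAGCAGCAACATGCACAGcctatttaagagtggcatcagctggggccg
Bak1-202: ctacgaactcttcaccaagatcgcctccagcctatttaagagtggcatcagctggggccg
The 2 transcripts also differ at the 5′ end, with a first exon of 168 bases in Bak1-201 and 599 bases in Bak1-202. Reads of either region can move the estimate, and which of them did so was not tested, so the share of Bak1-201 is not a measure of how often the small exon is used. Bak1 also overlaps exons of Ggnbp1 on the other strand, and no source used here says whether counting used strand. The same holds for Bid with Bcl2l13 and for Bad with Gpr137.

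**Figure D3:**
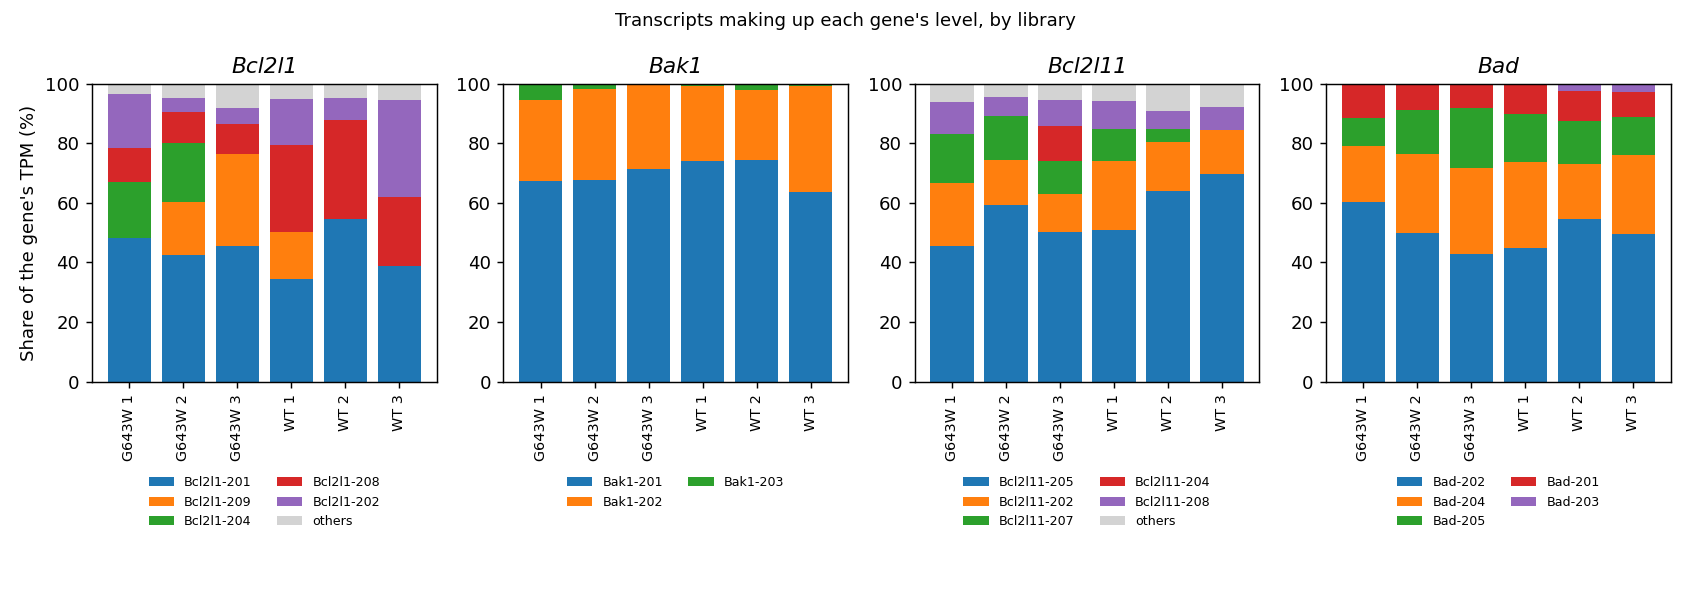
Share of each gene's TPM (percent) by annotated transcript in the 6 libraries, G643W left and WT right, for Bcl2l1, Bak1, Bcl2l11 and Bad. Bak1-201 takes 63.7 to 74.3% of Bak1 in every library, Bcl2l11-205 takes 45.6 to 69.6% of Bcl2l11, and Bcl2l1-204 and Bcl2l1-209 appear in some libraries only.

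Bcl2l11 encodes BIM, the BH3-only protein that kills blood cells deprived of growth factors. It had 5.02, 3.90 and 6.67 TPM in G643W and 5.41, 3.42 and 2.92 TPM in WT libraries (ENSMUSG00000027381; chromosome 2, 128126038 to 128162547, plus strand). The groups overlapped, since WT library 1 exceeded 2 of the G643W libraries, and the log2 fold change was 0.15 ± 0.25 (SE, edgeR adjusted p = 0.825). The leading transcript, Bcl2l11-205, carries the 588 coding bases of the longest form, BIM-EL. Bcl2l11-205 had 2.29, 2.31 and 3.34 TPM in G643W and 2.76, 2.19 and 2.03 TPM in WT. It held 51.6 ± 6.94% of the gene's TPM in G643W and 61.5 ± 9.58% in WT (two-sided exact permutation p = 0.2, adjusted p = 0.5 over 5 genes). Bcl2l11-203, with the 420 coding bases of BIM-L, was listed at 0 in all 6 libraries. Of the 2 transcripts with the 330 coding bases of BIM-S, Bcl2l11-201 was at 0.0535 to 0.206 TPM in G643W and 0 to 0.0883 TPM in WT, and Bcl2l11-204 was listed at 0 except in G643W library 3, at 0.798 TPM.

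Bid, which links death receptors to mitochondria once caspase-8 has cut it, was the most abundant BH3-only member in every library. It had 28.6, 21.1 and 25.8 TPM in G643W and 26.3, 34.1 and 23.9 TPM in WT libraries (chromosome 6, 120891930 to 120916853, minus strand), with a log2 fold change of -0.29 ± 0.24 (SE, edgeR adjusted p = 0.648). Bad, a BH3-only protein that growth factor signalling inactivates by phosphorylation, varied least among the BH3-only genes. It had 18.8, 16.6 and 17.1 TPM in G643W and 19.7, 19.1 and 18.6 TPM in WT (chromosome 19, 6941861 to 6951899, plus strand), with a log2 fold change of -0.21 ± 0.20 (SE, edgeR adjusted p = 0.680). Bid made up 49.6 to 52.9% and Bad 33.0 to 39.2% of the summed TPM of the 5 BH3-only members in G643W, and 48.2 to 57.9% and 32.5 to 39.7% in WT. That sum was 54.1, 42.4 and 51.9 TPM in G643W and 54.5, 58.9 and 47.0 TPM in WT, with overlap.

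Bmf, which encodes a BH3-only protein held at the cytoskeleton, was a low-level gene that varied between libraries. It had 1.67, 0.734 and 2.36 TPM in G643W and 3.03, 2.20 and 1.37 TPM in WT libraries (chromosome 2, 118528757 to 118549687, minus strand). The groups overlapped, and the log2 fold change was -0.73 ± 0.46 (SE, edgeR adjusted p = 0.579). Bik, whose product sits mainly at the endoplasmic reticulum, was near absent (chromosome 15, 83526862 to 83544634, plus strand). It had 1, 4 and 0 reads in G643W and 18, 6 and 17 reads in WT libraries, and it did not pass the filter on low counts, so it was not tested in the main fit. Every G643W library had fewer Bik reads than any WT library, 5 in all in G643W and 41 in WT, and no library exceeded 0.137 TPM.

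Among the 10 family genes outside the members, 6 were tested and none was called (edgeR), against 0.121% of all tested genes. At an unadjusted p under 0.05 there were 2 of the 6, against 9.66% of all genes, and the median log2 fold change was -0.56, against -0.01. That median lies between Bcl2a1a (-0.72) and Bcl2a1d (-0.39), near-identical copies of Bcl2a1b. Summed with Bcl2a1b, these copies differed by only -0.07. Without overlap in CPM 1 of the 6 was lower, against 8.89% of all genes. Such counts are too small to set these genes apart from that background. Bbc3, which encodes the p53-induced BH3-only protein PUMA, had 2.89, 1.89 and 1.82 TPM in G643W and 9.88, 5.62 and 4.68 TPM in WT libraries. The groups did not overlap, with a log2 fold change of -1.69 ± 0.36 (SE, edgeR adjusted p = 0.340, unadjusted p = 0.00224). Bax, the second effector, had 268, 149 and 233 TPM in G643W and 468, 354 and 256 TPM in WT, with overlap and a log2 fold change of -0.83 ± 0.30 (SE, edgeR adjusted p = 0.496, unadjusted p = 0.0285). Between 74.6 and 80.7% of the Bax TPM came from Bax-204, a transcript of 222 bases. Bax-201, with the 576 coding bases of the full protein, was at 13.6, 6.90 and 12.3 TPM in G643W and 20.4, 14.6 and 11.4 TPM in WT.

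Pmaip1, which encodes NOXA, the BH3-only partner of MCL1, ranged widely within both groups. It had 29.1, 9.48 and 17.8 TPM in G643W and 35.3, 3.80 and 4.68 TPM in WT, with WT library 1 the highest as it was for Mcl1 (log2 fold change 0.31 ± 0.84, SE, edgeR adjusted p = 0.897). Bcl2l2, the gene of the survival protein BCL-W, had 3.51, 3.68 and 3.08 TPM in G643W and 3.59, 3.50 and 4.51 TPM in WT (log2 fold change -0.14 ± 0.21, SE, edgeR adjusted p = 0.796). Bcl2l10, Bcl2a1c, Bok and Hrk had at most 9 reads in any library and were not tested.

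Markers of several cell types also differed between libraries, some of them between the groups. Of the 13 neutrophil genes all had a positive log2 fold change, and each overlapped between the groups. The neutrophil level was highest in G643W library 2, where Bcl2 was lowest. Within G643W, Bcl2 fell as the neutrophil mean rose. Libraries 1, 3 and 2 had means of -2.03, 2.00 and 2.77 and Bcl2 at 0.763, 0.519 and 0.098 TPM. Within WT there was no such order. Libraries 1, 2 and 3 had means of -2.84, -1.22 and 1.32 and Bcl2 at 1.55, 1.92 and 1.70 TPM. With the neutrophil mean as a covariate the log2 fold change of Bcl2 was -1.90 (edgeR adjusted p = 0.656) and that of Bcl2l1 0.95 (0.647). Cd34, a progenitor marker, was also without overlap, at 38.3, 5.82 and 19.9 TPM in G643W and 64.7, 94.0 and 42.7 TPM in WT (log2 fold change -1.89 ± 0.57, SE, edgeR adjusted p = 0.477). It was 1 of 5 blast and gate genes lower without overlap in CPM, against 8.89% of all genes. The other 4 had a positive log2 fold change. Kit, also a progenitor marker, overlapped at 35.9, 4.44 and 5.11 TPM in G643W and 2.12, 11.8 and 18.0 TPM in WT (log2 fold change 0.34 ± 0.83, SE, edgeR adjusted p = 0.886). The 8 dendritic cell markers summed to 13.6 to 49.8 TPM in G643W and 57.9 to 249.6 TPM in WT. Bst2 alone had 7.36 to 44.6 TPM in G643W and 38.6 to 226.8 TPM in WT, with overlap in TPM. Of the 8 markers, 4 were lower without overlap in CPM (3 of the 8 in TPM), against 8.89% of all genes in CPM. Xcr1, Clec9a, Itgax and Zbtb46 overlapped. The 6 erythroid markers summed to 3.71 to 9.48 TPM in G643W and 1.51 to 1.71 TPM in WT. The part of Cd34-positive, dendritic and erythroid cells in the Bcl2 and Bcl2l1 values was not tested. The summed lymphoid markers overlapped between the groups. Without overlap in CPM, 1 of 5 tested T and NK cell genes was higher in G643W. So was 1 of 3 tested B cell genes, each against 7.05% of all genes. The 7 T and NK cell genes summed to 2.35 to 12.4 TPM in G643W and 2.40 to 10.6 TPM in WT. The 5 B cell genes summed to 8.93 to 16.1 TPM in G643W and 14.1 to 16.5 TPM in WT. The summed levels of the remaining lists overlapped as well. The 8 monocyte genes summed to 2687.3 to 3500.7 TPM in G643W and 1986.5 to 4009.0 TPM in WT. Most of that sum was Ly6c2, at 2577.0 to 3253.2 TPM in G643W and 1568.6 to 3727.0 TPM in WT. Without overlap in CPM, 3 of the 8 were lower, against 8.89% of all genes. They were Ccr2, F13a1 and Irf8 (log2 fold changes -1.33, -2.07 and -1.81, edgeR adjusted p = 0.493, 0.454 and 0.454). The 6 macrophage genes ran from 87.2 to 173.5 TPM in G643W and from 105.0 to 205.1 TPM in WT. The 4 megakaryocyte genes ran from 1.95 to 5.02 TPM in G643W and from 3.61 to 9.87 TPM in WT. Of 3 tested megakaryocyte genes 1, Itga2b, was lower without overlap in CPM (log2 fold change -3.21 ± 0.78, SE, edgeR adjusted p = 0.409), against 8.89% of all genes. Gp9 lay the other way and Pf4 the same way, both with overlap (log2 fold changes 1.72 ± 1.07 and -0.52 ± 1.27, SE). The 4 mast cell and basophil genes ran from 3.42 to 40.7 TPM in G643W and from 8.21 to 222.5 TPM in WT.

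**Figure D4:**
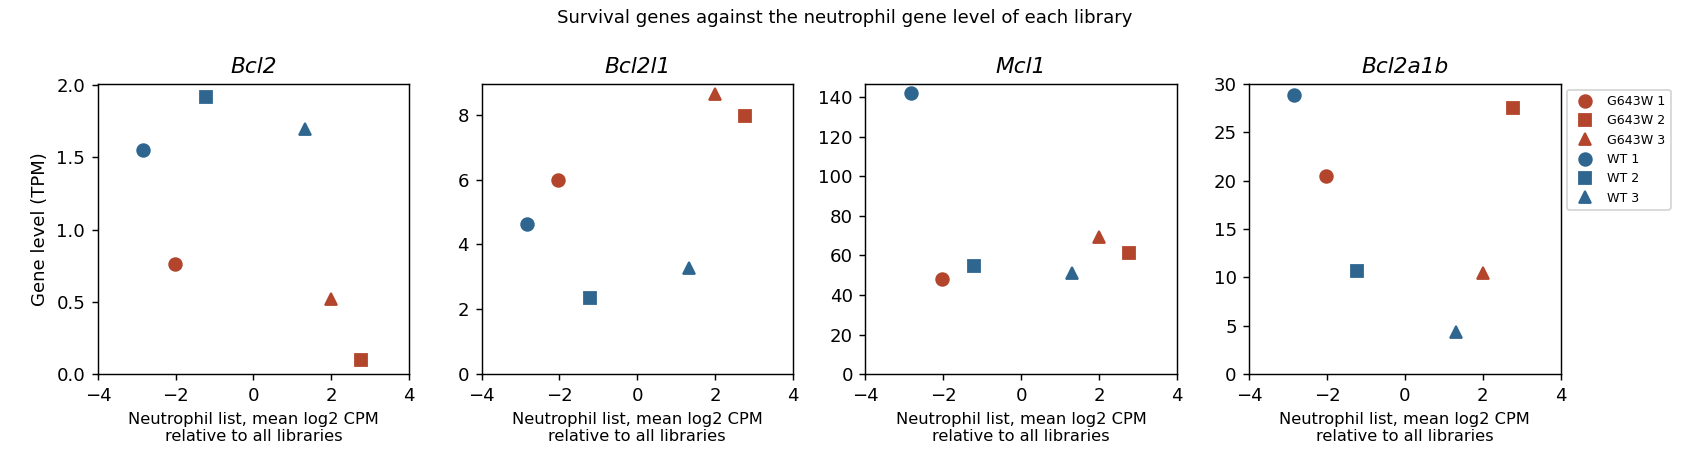
Gene level in TPM of Bcl2, Bcl2l1, Mcl1 and Bcl2a1b (y axes from 0) against the mean log2 CPM of 13 neutrophil markers relative to all libraries, 1 point per library, G643W in red and WT in blue. The neutrophil mean runs from -2.03 to 2.77 in G643W and from -2.84 to 1.32 in WT. G643W library 2, at 2.77, holds the lowest Bcl2 level, and WT library 1, at -2.84, the highest Mcl1 level. Within G643W Bcl2 falls as the neutrophil mean rises, and within WT its highest level is at the middle neutrophil mean.

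Genes that act downstream of the family, and genes of partners and regulators of its proteins, also gave no call. Of 13 apoptosome and caspase genes, all tested, 0 passed with edgeR, 3 had an unadjusted p under 0.05, against 9.66% of all genes, and the median log2 fold change was -0.11. Of the 12 partners and kinases of BH3-only proteins, 0 passed, and the lowest p was that of Ywhab, a 14-3-3 protein of the kind that holds phosphorylated BAD. Ywhab had 50.1, 60.6 and 60.8 TPM in G643W and 44.1, 27.0 and 44.1 TPM in WT (log2 fold change 0.52 ± 0.25, SE, edgeR adjusted p = 0.537). The other 14-3-3 genes Ywhae, Ywhag and Ywhaq were at -0.26, -0.39 and -0.08, and Ywhaz at 0.40. Of the 12 genes, 9 had a negative log2 fold change and 3 a positive one. Without overlap in CPM, 4 of the 12 were lower and 1 higher, against 8.89% and 7.05% of all genes. Of 5 tested genes that govern MCL1 turnover 0 passed, with Btrc, a ubiquitin ligase subunit, at 10.1, 8.68 and 5.46 TPM in G643W and 4.01, 5.78 and 4.88 TPM in WT (log2 fold change 0.38 ± 0.26, SE, edgeR adjusted p = 0.598). At an unadjusted p under 0.05 there were 0 of these 12 and 0 of these 5, against 9.66% of all genes.

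The genes whose levels followed a member most closely over the 6 libraries were sought among 11519 protein-coding genes by Pearson's r of log2 CPM, as a description. For Bcl2 they included Gatc (0.993) and Glb1 (0.986). Glb1, a lysosomal enzyme, was at 6.55, 1.76 and 4.50 TPM in G643W and 7.62, 10.9 and 8.30 TPM in WT libraries. For Mcl1 they were Zc3h12a (0.997), Tuba1a (0.992) and Phf11a (0.991). All 3 had their highest value in WT library 1, and Zc3h12a, an RNase that restrains inflammatory transcripts, had 3.78, 4.70 and 6.09 TPM in G643W and 12.4, 4.78 and 3.84 TPM in WT. For Bcl2l11 they were Cask (0.960), Nqo1 (0.958) and Zfp120 (0.955). Each r joins 6 libraries that share depth and makeup differences, and none carries a test.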

How the data were processed

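Per the labels' protocols, RNA of sorted blasts was made into libraries with a TruSeq V2 kit. Per the submitters' processing notes, bcl2fastq and Salmon 0.12.0 were used, with mm10 and GRCm38.p6 named as builds; no source used here gives the index or options. Per the file headers, the authors deposited Salmon's estimated counts (fractional where a read fits several transcripts), TPM and the effective length of each transcript. Gene values are sums over 136176 of the 136288 transcripts, those listed in GENCODE M21, and cover 53458 genes. The remaining 112 took no more than 0.0365% of the reads in any library.

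Estimated counts were rounded. Genes passing filterByExpr at a minimum count of 10 were fitted after TMM scaling in edgeR 4.0.16 (quasi-likelihood, genotype only) in R 4.3.3. P-values had Benjamini-Hochberg adjustment over 20654 genes and a threshold of 0.05. SE is the absolute log2 fold change over the square root of F. CPM is the TMM-scaled read share. Transcript shares were compared by exact permutation with SciPy 1.17.1. Copies of members were searched by BLAST+ 2.17.0 (at least 95% identity over 50% of the length). The code was tested on simulated counts. Alternatives included DESeq2 1.42.0 and limma 3.58.1.

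Named were the members, the other measured family genes, the gene with the lowest p of each pathway list and the 3 genes most like Bcl2, Mcl1 and Bcl2l11; a few of these are not reported here. Members and lists were chosen with earlier results of these data known. Every pair of libraries within a genotype differed by more than sampling noise. Depth ran from 61167075 to 101189225 estimated reads.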

Additional observations from a re-analysis of the deposited data

How the results depend on the processing

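In every setting run, 0 members were called. The lowest adjusted p was 0.0539 for Bcl2l1 and 0.0617 for Bcl2, both with DESeq2, and Bcl2l1 kept a log2 fold change between 0.89 and 1.21. Bcl2 stayed between -2.55 and -1.59 except with limma on log2(TPM + 1), which shrinks low genes, at -0.92. Bik was tested only without a filter and without G643W library 1, 2 or 3 or WT library 2. It was not called, and it is left out of the values that follow. Of 155 member values under other settings, 9 changed sign, none past the threshold. For Bak1, whose value is near 0, they were -0.04 without a scaling factor and -0.01 with the neutrophil covariate, with -0.03 to 0.15 when 1 library was left out. Leaving out 1 library gave -0.74 to 0.04 for Mcl1, -0.02 to 1.26 for Bcl2a1b and -0.02 to 0.32 for Bcl2l11. Bcl2a1b was -0.07 with its copies summed and -0.06 with Gm29094 added, the last chosen after seeing the data. Over all genes the 25 calls became 16 without a scaling factor, 104 without a filter, 10 with length-scaled counts, 428 with DESeq2, 43 with limma on log2(TPM + 0.1), 2 on protein-coding genes alone and 0 to 16 with 1 library left out. Without G643W library 1, 2 or 3 there were 16, 6 and 3 calls; without WT library 1, 2 or 3 there were 5, 0 and 15, the 0 beside 1277 genes at an unadjusted edgeR p under 0.05. The split of 11 higher and 14 lower became 8 and 2 with length-scaled counts and 13 and 7 with limma on log2(TPM + 1). The cause of these changes was not tested.

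With the replicate number as a block 0 genes and 0 members were called, with 1772 genes at an unadjusted edgeR p under 0.05. The deviations of same-numbered libraries from their group means correlated weakly (0.11, -0.16 and 0.18), and G643W library 1 correlated best with WT library 2 (0.21). With 3 libraries per group these values cannot decide whether the numbers pair the libraries, and the labels do not say.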

Other observations

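Further gene groups around mitochondria and death receptors were read in the same fit (edgeR, adjusted over all genes), and none of their genes was called. Of 9 genes of the outer membrane and mitochondrial shape, 1 had an unadjusted p under 0.05, against 9.66% of all genes. It was Mfn2, which fuses mitochondria, and 1 of the 9 was higher without overlap in CPM, against 7.05% of all genes. Mfn2 had 10.7, 8.21 and 12.0 TPM in G643W libraries and 4.04, 5.07 and 7.18 TPM in WT libraries, without overlap (log2 fold change 0.72 ± 0.24, SE, edgeR adjusted p = 0.488). Of 6 BCL2-related mitochondrial proteins, 1 had an unadjusted p under 0.05, against 9.66% of all genes. It was Bnip3, a hypoxia-induced receptor for the removal of mitochondria. Bnip3 had 11.8, 10.8 and 9.93 TPM in G643W and 13.5, 23.7 and 20.1 TPM in WT (log2 fold change -0.63 ± 0.25, SE, edgeR adjusted p = 0.503). Bnip3l lay the other way, at 134.0, 249.4 and 178.3 TPM in G643W and 107.7, 107.4 and 128.2 TPM in WT (log2 fold change 0.57 ± 0.31, SE, edgeR adjusted p = 0.558). Of the 6, 3 had a positive log2 fold change and 3 a negative one.

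Of 9 tested death receptor genes, 0 had an unadjusted p under 0.05, against 9.66% of all genes. Without overlap in CPM, 2 of the 9 were lower, against 8.89% of all genes. Tradd, an adaptor of the TNF receptor, had 13.4, 10.9 and 12.2 TPM in G643W and 18.9, 17.4 and 15.3 TPM in WT, without overlap (log2 fold change -0.49 ± 0.22, SE, edgeR adjusted p = 0.526). The 4 inhibitor of apoptosis genes had a median log2 fold change of 0.03, and Birc2, a ubiquitin ligase among them, had 11.9, 13.5 and 14.3 TPM in G643W and 11.0, 10.8 and 9.56 TPM in WT (log2 fold change 0.17 ± 0.21, SE, edgeR adjusted p = 0.755).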
